A study of Mus musculus with 54 samples.

Results

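*Cirbp* and *Rbm3*, the genes of 2 small RNA-binding proteins that rise when mammalian cells are mildly cooled, were followed over 24 hr in the mouse suprachiasmatic nucleus (SCN), the hypothalamic pacemaker of daily rhythms. The members were the rows of the read count table whose Ensembl identifier maps to *Cirbp* or *Rbm3*, which gave 2 of 30031 genes, and both passed the filter on low counts (at least 1 read in more than 6 replicates). The SCN was laser-captured from Nissl-stained sections of male C3H/HeH mice of 10–12 weeks, kept under 12 hr of light and 12 hr of darkness, at 6 zeitgeber times (ZT, hours after lights on): ZT2, ZT6 and ZT10 in the light, and ZT14, ZT18 and ZT22 in the dark. The mice carried no transgene or drug by the labels, so timepoints differ in time of day alone as far as these state. Each timepoint had 3 replicates, each replicate was RNA pooled from 5 mice and amplified before sequencing, and 3 lanes per replicate made 54 lane samples and 18 replicates. Pooling hides the spread between animals, and body temperature itself was not part of these files.

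CIRBP and RBM3 each hold an RNA recognition motif followed by a glycine-rich tail. In mice, which are active at night, body temperature is lower during the light phase than during the dark phase, and in cultured cells temperature cycles of this size are known to set the levels of both transcripts in antiphase to temperature. CIRBP is known to bind the mRNA of the clock gene *Clock*, both proteins have been tied to the choice of polyadenylation site, and RBM3 is known for protecting synapses in the cooled brain through the membrane protein RTN3. Cold acts on *Cirbp* partly through its promoter, where the factor SP1 binds a short mild-cold response element, and on *Rbm3* partly through splicing of an exon that makes the transcript unstable.

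*Cirbp* (ENSMUSG00000045193) lies on the plus strand of chromosome 10 at 80165985–80172786 on GRCm38 and *Rbm3* (ENSMUSG00000031167) on the minus strand of chromosome X at 8138975–8145880. GENCODE M21 gives *Cirbp* 7 transcripts, of which 2 are coding and 4 retain an intron, and *Rbm3* 11 transcripts, of which 6 are coding. Translated from their reference transcripts, the proteins have 172 residues (CIRBP) and 154 residues (RBM3), and 73.3% of 150 aligned residue pairs were identical. Both tails beyond residue 90 were about equally rich in glycine, at 31.7% in CIRBP and 32.8% in RBM3, but CIRBP held 8 arginine–glycine pairs there and RBM3 held 2. The 24 bases that encode the RNP1 octapeptide, the core of the RNA recognition motif at residues 47–54 of both proteins, are shown because they carry the feature that makes the genes relatives. They lie in coding exons at chr10:80170051-80170074 (plus strand) and chrX:8144621-8144644 (minus strand), and capitals mark the 6 of 24 bases that differ.
Cirbp: cgAggCtttggGttTGtcaccttT
Rbm3: cgGggTtttggCttCAtcaccttC

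The stretch upstream of a *Cirbp* start site is shown because it holds the letters of the mild-cold response element, TCCCCGCC, in capitals. It was read from RefSeq (GRCm38.p6, chr10:80167589-80167777, plus strand), lies inside an intron of longer annotated *Cirbp* transcripts and overlaps no annotated exon.
Cirbp upstream: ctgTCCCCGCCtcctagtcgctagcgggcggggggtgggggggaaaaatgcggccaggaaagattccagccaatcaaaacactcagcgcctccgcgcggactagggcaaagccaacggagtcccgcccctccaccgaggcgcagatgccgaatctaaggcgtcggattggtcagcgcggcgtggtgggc
The window is 66.1% G and C. On either strand, TCCCCGCC occurred in 5.38% of the 32851 promoter windows of the same table, which run from 250 bases before to 50 bases after a start site. The 300-base window around this start site held the GC box GGGCGG 3 times (found in 35.7% of all windows) and CCAAT 2 times (37.4%), and did not hold the letters of the cAMP response element TGACGTCA (1.79%), the E-box CACGTG (7.15%) or the heat shock core GAANNTTC (7.86%). The RefSeq table gave a second *Cirbp* window without TCCCCGCC. *Rbm3* had no entry.

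Between 15412981 and 35820945 reads per replicate were counted on genes (median 25075231). *Cirbp* took between 2719 and 20553 of these and *Rbm3* between 337 and 1493, so that counting alone gives an SD of at most 1.92% for *Cirbp* and 5.45% for *Rbm3*. Marker genes of SCN neurons summed to between 1578 and 5582 CPM (counts scaled to the library total, here after TMM normalization) in every replicate and those of telencephalic excitatory neurons to between 16.3 and 230 CPM, and none of the 62 marker genes was at 0 throughout. By principal components, the libraries fell into 3 clusters of neighbouring timepoints: one holds ZT22 and ZT2, another ZT6 and ZT10, and the last ZT14 and ZT18. ZT18 replicate C, which had the fewest reads (15412981), stood apart from the rest of its cluster on the first component. It lay there at 23.7, near ZT10 replicate A at 24.4. The study names sequencing batch beside timepoint as separating its libraries in such a plot and holds batch effects to be small. Which libraries shared a batch is not given in the sources used here, so steps are given as between or inside these clusters, and the part of batch in either was not tested. The ZT6 and ZT10 libraries also stand apart in the deposited values. Their counts equalled the reads recovered from the authors' normalized values for 36.8–47.1% of shared genes, beside 94.7–96.3% in the other libraries. *Cirbp* was highest in these ZT6 and ZT10 libraries, and the part of this discrepancy in its level was not tested.

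*Cirbp* was highest in the later light phase. In the light, it measured 202, 261 and 295 CPM in the ZT2 replicates, 637, 483 and 400 CPM in those of ZT6, and 666, 892 and 506 CPM in those of ZT10. In the dark, it measured 312, 303 and 273 CPM in the ZT14 replicates, 263, 300.5 and 166 CPM in those of ZT18, and 250, 178 and 187 CPM in those of ZT22. All 6 replicates at ZT6 and ZT10 lay above all 12 others, which had at most 312 CPM, a separation that 4.78% of the 18941 genes tested also had. The means ranked ZT10 (688 ± 194 CPM, SD, n = 3), ZT6 (507 ± 120), ZT14 (296 ± 20.4), ZT2 (253 ± 46.7), ZT18 (243 ± 69.4) and ZT22 (205 ± 39.2), and each mean's replicates overlapped those of its neighbour in this order except between ZT6 and ZT14. The highest mean was 3.36-fold the lowest. *Cirbp* changed with time in edgeR's quasi-likelihood F-test (adjusted p = 4.65e-05, with 44% of genes called).

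*Rbm3* was low in the first 2 timepoints of darkness and high again before lights on. In the light, it measured 61.1, 46.3 and 51.6 CPM in the ZT2 replicates, 41.1, 28.7 and 48.7 CPM in those of ZT6, and 49.6, 64.8 and 44.8 CPM in those of ZT10. In the dark, it measured 19.3, 29.5 and 26.6 CPM in the ZT14 replicates, 10.8, 18.9 and 26.4 CPM in those of ZT18, and 38.6, 43.3 and 36.4 CPM in those of ZT22. The 6 replicates at ZT14 and ZT18 had at most 29.5 CPM and overlapped the other 12 only through ZT6 replicate B at 28.7 CPM. The means ranked ZT10 (53.1 ± 10.4 CPM, SD, n = 3) and ZT2 (53.0 ± 7.51), which differed by less than their spread, then ZT6 (39.5 ± 10.1) and ZT22 (39.4 ± 3.50), which also did, then ZT14 (25.2 ± 5.24) and ZT18 (18.7 ± 7.79), whose replicates overlapped. The highest mean was 2.84-fold the lowest, and *Rbm3* changed with time (edgeR adjusted p = 0.00158). Per kilobase of its reference transcript, *Rbm3* was the lower of the pair at every timepoint: at ZT10 it had a mean of 46.1 ± 9.06 CPM per kilobase and *Cirbp* one of 521 ± 147.

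**Figure D1:**
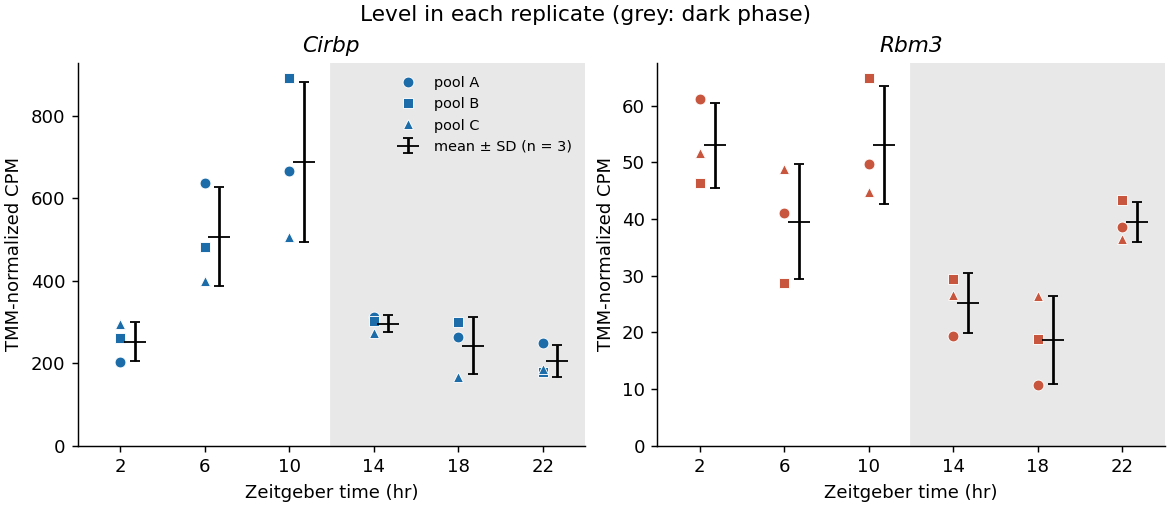
TMM-normalized CPM (y axis, linear from 0) of *Cirbp* (left) and *Rbm3* (right) against zeitgeber time in hours, with 1 symbol per replicate and the mean ± SD of n = 3 beside them. *Cirbp* stands above 400 CPM in every replicate at ZT6 and ZT10 and nowhere else, while *Rbm3* is at most 29.5 CPM at ZT14 and ZT18 and between 36.4 and 61.1 CPM at ZT22 and ZT2.

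Both genes were higher in the light than in the dark, the question that their known response to temperature poses. The mean over the 9 light replicates was 482 CPM for *Cirbp* and 248 CPM over the 9 dark replicates, a log2 difference of 0.86 ± 0.14 (SE; 1.81-fold; edgeR adjusted p = 3.41e-04). *Rbm3* had 48.5 CPM in the light and 27.8 CPM in the dark, a log2 difference of 0.86 ± 0.16 (SE; 1.82-fold; adjusted p = 0.00107). Light and dark replicates overlapped for each gene: *Cirbp* through its ZT2 replicates, and *Rbm3* through its ZT22 replicates, ZT14 replicate B and the lower ZT6 replicates. Of all genes tested, 9.56% were called higher in the light and 14.3% lower (1810 and 2707 genes, or 2336 and 2081 under upper-quartile scaling), and the differences of *Cirbp* and *Rbm3* ranked at the 91.8 and 91.9 percentile. Summed markers changed over the day too, though not all by light phase. The 9 SCN neuron markers, several of which are themselves clock-controlled, summed to between 2924 and 5582 CPM in the light and between 1578 and 2952 in the dark (7 called higher in the light), and the 9 oligodendrocyte markers to between 1368 and 4466 CPM in the light and between 2256 and 6165 in the dark (6 called lower in the light). The oligodendrocyte sum had means of 3084 CPM at ZT2 and 2691 CPM at ZT22, beside 5358 and 5493 CPM at ZT14 and ZT18. The 8 astrocyte markers summed to a mean of 4082 CPM at ZT2 and 1755 CPM at ZT10, both in the light. Markers of telencephalic excitatory neurons, 6 genes, summed to means of 59.5, 19.1 and 54.6 CPM at ZT2, ZT6 and ZT10. At ZT14, ZT18 and ZT22 their sums had means of 139.5, 44.1 and 151 CPM (3 called lower in the light), so this signal from outside the SCN was not steady over the timepoints. None of these markers was at 0, and their part in the difference was not tested. In dissected tissue, fewer cells of a type and less RNA per cell cannot be told apart.

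The 2 genes parted in when they moved. From ZT2 to ZT6 *Cirbp* rose 2.01-fold (log2 1.00 ± 0.25, SE; edgeR adjusted p = 0.00429, with 17.5% of genes called higher), whereas the log2 difference of *Rbm3* was −0.42 ± 0.28 (adjusted p = 0.26). From ZT10 to ZT14, across lights off, both fell, *Cirbp* by 1.22 ± 0.25 and *Rbm3* by 1.08 ± 0.29 on the log2 scale (adjusted p = 0.00254 and 0.0141, with 7.52% of genes called lower). From ZT18 to ZT22 *Rbm3* rose 2.12-fold (log2 1.08 ± 0.29; adjusted p = 0.0130, with 6.27% of genes called higher), and *Cirbp* had a log2 difference of −0.25 ± 0.25 (adjusted p = 0.55). The steps of *Rbm3* rest on few replicates: from ZT10 to ZT14 the adjusted p was 0.0747 without ZT10 replicate B and 0.0784 without ZT14 replicate A, and from ZT18 to ZT22 it was 0.0551 without ZT18 replicate A and 0.0523 without ZT22 replicate B.

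All 4 of these called steps lie between clusters of libraries, and 0 of the 6 steps inside clusters passed the test (ZT10 minus ZT6 called 0.0475% of genes, ZT18 minus ZT14 0.57% and ZT2 minus ZT22 0.0317%). Their unadjusted p-values were at least 0.089, so 0 of them were under 0.05, and DESeq2 also called 0. The log2 differences inside clusters had the same sign in both genes. ZT10 stood over ZT6 by 0.44 ± 0.25 for *Cirbp* and 0.43 ± 0.28 for *Rbm3* (edgeR adjusted p = 0.52 and 0.60). ZT2 stood over ZT22 by 0.30 ± 0.25 and 0.43 ± 0.28 (adjusted p = 1 for both), and ZT18 minus ZT14 was −0.28 ± 0.25 and −0.43 ± 0.28 (adjusted p = 0.70 and 0.56). By sign alone, 10.1% of all genes tested shared these 3 directions. The 95% intervals of these differences for *Rbm3* ran from −0.17 to 1.02 for ZT10 minus ZT6, from −0.17 to 1.02 for ZT2 minus ZT22 and from −1.03 to 0.16 for ZT18 minus ZT14. Each interval held no change and, near its far end, a doubling between the timepoints. A joint test of the 3 differences gave an adjusted p of 0.57 for *Cirbp* and 0.54 for *Rbm3*. It called 0.116% of genes, and the unadjusted p was 0.15 and 0.11.

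**Figure D2:**
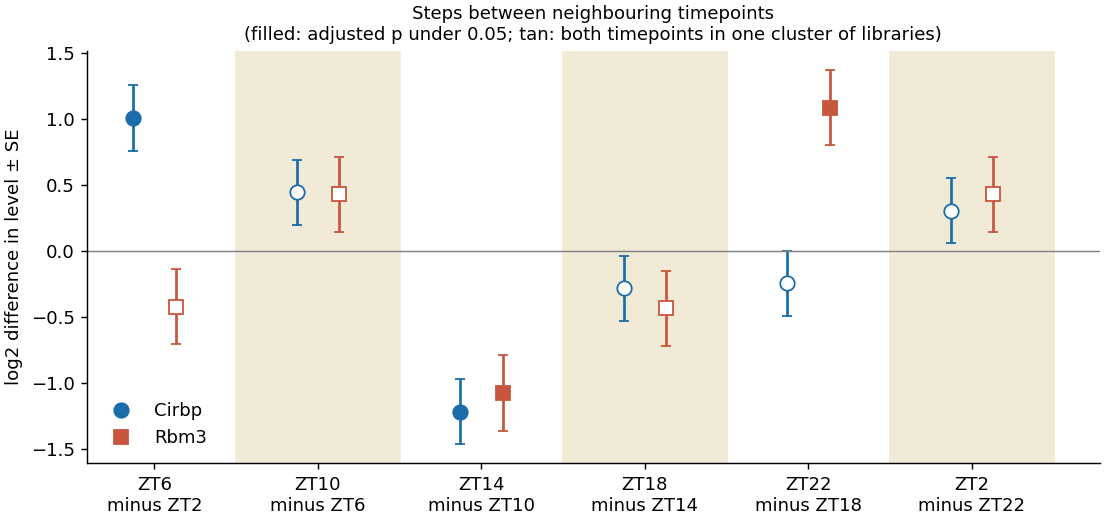
log2 difference in level ± SE (y axis) of *Cirbp* (circles) and *Rbm3* (squares) for the 6 steps between neighbouring timepoints, from one edgeR fit to 18 replicates, with filled symbols for an adjusted p under 0.05 and a tan ground where both timepoints share a cluster of libraries. The filled symbols (*Cirbp* at ZT6 minus ZT2, *Rbm3* at ZT22 minus ZT18, both at ZT14 minus ZT10) all fall outside the tan ground.

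The ratio of the pair put a test on whether *Cirbp* and *Rbm3* moved by unequal amounts over the timepoints. It does not depend on how libraries are scaled. Genes with the same timing but unequal amplitudes would also change this ratio, so it cannot decide whether their timing differs. In the light, there were 3.31, 5.63 and 5.72 *Cirbp* reads for each *Rbm3* read in the ZT2 replicates, 15.5, 16.8 and 8.21 in those of ZT6, and 13.4, 13.8 and 11.3 in those of ZT10. In the dark, there were 16.1, 10.3 and 10.2 in the ZT14 replicates, 24.4, 15.9 and 6.29 in those of ZT18, and 6.47, 4.11 and 5.13 in those of ZT22. The 6 replicates at ZT22 and ZT2 had between 3.31 and 6.47 *Cirbp* reads per *Rbm3* read and the other 12 between 6.29 and 24.4, with ZT18 replicate C the only overlap. The log2 ratio of *Rbm3* to *Cirbp* differed among the 6 timepoints (F = 5.06; permutation p = 0.0115 from 100000 permutations), and F ran from 3.88 without ZT2 replicate A (permutation p = 0.0318) to 11.2 without ZT18 replicate C (permutation p = 7.50e-04). It did not differ detectably between light and dark, at −3.20 ± 0.81 and −3.23 ± 0.86 (SD, n = 9 each), a difference of 0.03 with a 95% interval of −0.80 to 0.87 from inverting the exact permutation test (two-sided exact p = 0.95). Inside clusters the differences were 0.12 for ZT2 minus ZT22, −0.01 for ZT6 minus ZT10 and 0.17 for ZT14 minus ZT18 (two-sided exact permutation p of at least 0.70, where 3 against 3 cannot go below 0.1). The part of sequencing batch in the change of ratio was not tested.

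**Figure D3:**
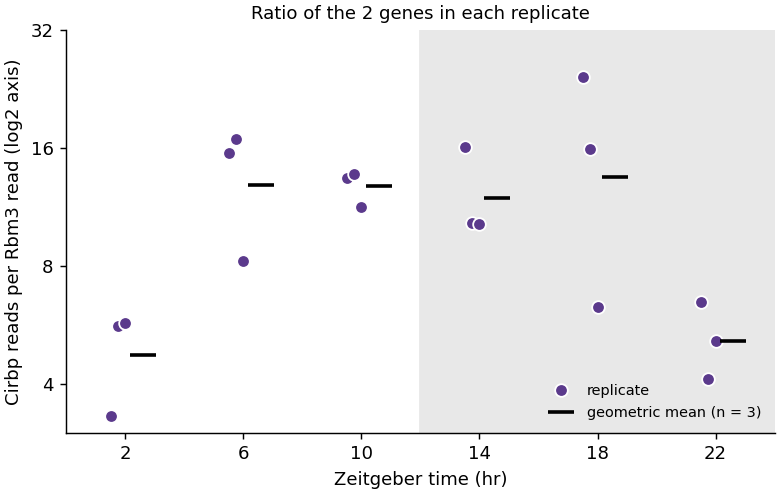
*Cirbp* reads per *Rbm3* read (y axis, log2 scale) against zeitgeber time in hours, with 1 point per replicate and a bar at the geometric mean of n = 3. Replicates at ZT22 and ZT2 lie between 3.31 and 6.47 and the others between 6.29 and 24.4.

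A single 24 hr cosine put the peak of *Cirbp* at ZT8.88 ± 0.55 hr (SE) with an amplitude, the distance from midline to peak, of 0.83 ± 0.12 on the log2 scale (limma adjusted p = 1.65e-04, with 41.1% of genes called). The cosine of *Rbm3* peaked at ZT4.86 ± 0.91 hr with an amplitude of 0.66 ± 0.16 (adjusted p = 0.00760). This fitted peak lies between its highest means, 53.0 CPM at ZT2 and 53.1 CPM at ZT10. The mean at ZT6 was lower, at 39.5 CPM, with overlapping replicates. The cosine described *Rbm3* less well. Terms with a 12 hr period added to its fit had an amplitude of 0.47 (adjusted p = 0.0197, with 24.3% of genes called) and for *Cirbp* one of 0.27 (adjusted p = 0.14). JTK_CYCLE, a rank test for a 24 hr rhythm, with an exact null distribution, gave p = 2.57e-05 and a peak at ZT10 for *Cirbp* and p = 0.0178 and a peak at ZT6 for *Rbm3*, with 37.4% of genes called. For *Rbm3* the JTK_CYCLE p was 0.0662 without ZT18 replicate A, or without ZT18 replicate B, and 0.0639 after adjustment over genes.

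Reads of *Rbm3* are uncertain because of its copies. Of its 1152-base reference transcript, 539 bases (46.8%) matched transcripts of 5 other genes at 95% identity or more over at least 100 bases, among them the processed pseudogenes *Rbm3-ps* (99.4% over 465 bases) and *Gm10156* (98.5% over 465 bases), and how reads with several best alignments were counted is not given in the sources used here. *Cirbp* had 0 such copies. *Gm10156* carried between 19 and 178 reads per replicate, 4.40–14.0% of the *Rbm3* reads, and was itself higher in the light (log2 1.16 ± 0.27, SE; edgeR adjusted p = 0.00457). With its reads added, *Rbm3* kept its time call (adjusted p = 8.48e-04) and a light minus dark difference of 0.89. *Phospho2*, of which 1 transcript matches *Rbm3* at 97.4% over 379 bases, carried 30.2–364% of the *Rbm3* reads per replicate. It changed with time (edgeR adjusted p = 1.94e-04). Its means were 16.9, 32.2 and 42.2 CPM at ZT2, ZT6 and ZT10, and 40.5, 50.1 and 16.3 CPM at ZT14, ZT18 and ZT22. The light minus dark difference of *Phospho2* was −0.17 ± 0.15 (adjusted p = 0.45). Its part in the reads of *Rbm3* was not tested. The antisense gene *Rbm3os* overlaps *Rbm3* by 452 bases and had between 0 and 50 reads. Whether counting used strand is not given, so these reads and those of *Rbm3* could not be separated.

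Likeness was measured as Pearson's r of log2 CPM over the 18 replicates among 15758 other genes with a mean of at least 10 reads. The replicates share their clusters, so r describes them and carries no p. *Cirbp* and *Rbm3* had r = 0.29 with each other, which placed *Rbm3* 4918th among the genes most like *Cirbp* and *Cirbp* 2811th among those most like *Rbm3*. The 8 genes most like *Cirbp* (r of 0.90–0.93) were *Cbarp*, a regulator of voltage-gated calcium channels, *Celf6*, a splicing factor, *Gm15393*, *Gm14056*, *Meis3*, a homeobox factor, *Emc7*, a subunit of the membrane insertion complex of the endoplasmic reticulum, *Prkaca*, the catalytic subunit of protein kinase A, and *Zcchc17*, and all 8 changed with time (beside 44% of all genes). The 8 were picked on these same replicates for likeness to a gene called with time, so their time calls are no separate result. *Cbarp* had means of 402 and 382 CPM at ZT6 and ZT10 and between 134 and 187 CPM elsewhere, although it overlaps other genes and its reads are uncertain without strand. *Gm14056* was at 0 reads in all ZT2 replicates and between 43 and 84 at ZT6 and ZT10. The 4 most opposite were *Dtx4*, a ubiquitin ligase of Notch signalling, *Zfp207*, *Zfp455* and *Thoc2*, of the mRNA export complex (r of −0.94 to −0.91), and *Dtx4* fell from a mean of 46.0 CPM at ZT2 to 16.9 CPM at ZT10.

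The gene most like *Rbm3* was its pseudogene *Gm10156* (r = 0.91), whose reads cannot be cleanly parted from its own. The next 7, with r of 0.82–0.86, were the splicing factor gene *Bud31*, *Rsbn1l*, *Aard*, *Ccdc92b*, *Gm13641*, *Ctsl*, which encodes the lysosomal protease cathepsin L, and *Bag4*, a co-chaperone of HSP70. *Ctsl* had means of 290, 225 and 250.2 CPM at ZT2, ZT6 and ZT10, 161 and 159 CPM at ZT14 and ZT18, and 266 CPM at ZT22. Of the 8 genes most like *Rbm3*, 4 changed with time (*Gm10156*, *Bud31*, *Gm13641* and *Ctsl*), a share near the 44% of all genes. *Rasa3*, a Ras GTPase-activating protein, *Sf3a1*, a splicing factor, *Abcd3*, a peroxisomal transporter, and *Nprl3*, a subunit of the GATOR1 complex, were the most opposite (r of −0.88 to −0.86). *Sf3a1* had means of 115 and 122 CPM at ZT14 and ZT18 and between 55.9 and 61.6 CPM elsewhere.

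**Figure D4:**
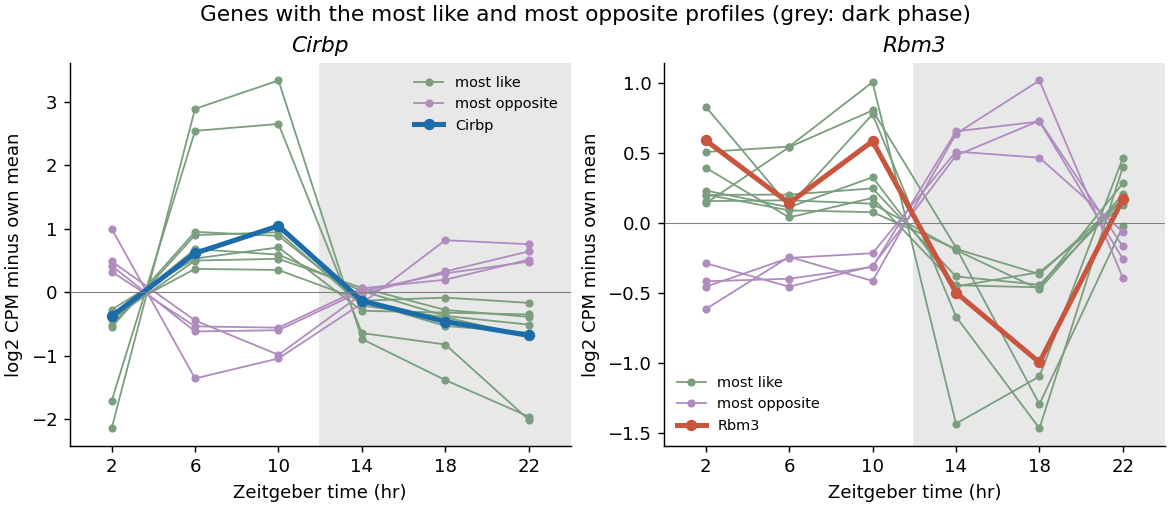
log2 CPM minus each gene's own mean (y axis, timepoint means of n = 3) against zeitgeber time in hours for *Cirbp* (left) and *Rbm3* (right) as thick lines, the 8 most like genes in green and the 4 most opposite in purple. The genes like *Cirbp* are high at ZT6 and ZT10, and those like *Rbm3* are low at ZT14 and ZT18.

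Genes known to act on cold induction did not move as a group. Of 8, 4 changed with time (50%, beside 44% of all genes), with a median light minus dark log2 difference of 0.06 beside −0.13 over all genes. *Srsf5*, a cold-responsive splicing factor, was higher in the light (319 against 241 CPM; log2 0.43 ± 0.12, SE; edgeR adjusted p = 0.0146), and it was highest at ZT2 (475 CPM) and ZT22 (376 CPM). The genes of the neurotrophin receptor TrkB, *Ntrk2*, and of its effector phospholipase C gamma, *Plcg1*, a route by which cooling raises RBM3 in neurons, were lower in the light, by −0.27 ± 0.08 (adjusted p = 0.0212) and −0.62 ± 0.15 (adjusted p = 0.00507), but *Ntrk2* was not called with DESeq2 size factors (adjusted p = 0.068) or upper-quartile scaling (0.16). At ZT2, in the light, *Ntrk2* and *Plcg1* had means of 561 and 65.1 CPM, no lower than at any dark timepoint. *Ntrk2* was lowest at ZT10 (392 CPM) and *Plcg1* at ZT6 (14.4 CPM). *Hnrnph1*, a splicing repressor tied to the *Rbm3* switch exon, changed with time (adjusted p = 0.00558). Its light minus dark difference of 0.27 ± 0.10 missed the threshold (adjusted p = 0.064) and passed it with DESeq2 size factors (0.030). The kinase genes *Clk1* (0.24 ± 0.22) and *Clk4* (0.04 ± 0.19), which set splicing by temperature, *Creb1* (0.08 ± 0.16), a factor downstream of TrkB, and *Sp1* (−0.002 ± 0.18) were called neither with time nor between light and dark.

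Of the known targets, *Rtn3* was higher in the light (580 against 405 CPM; log2 0.46 ± 0.09, SE; edgeR adjusted p = 0.00112), with means of 727 and 644 CPM at ZT6 and ZT10 and between 368 and 416 CPM elsewhere. RBM3 is known to act on its translation, which transcript levels do not show. *Clock* changed with time (adjusted p = 0.0214), from 73.7 CPM at ZT2 to 39.7 CPM at ZT10, a call that was lost without ZT10 replicate A (adjusted p = 0.0518) or ZT10 replicate B (0.0580), and its light minus dark difference was −0.38 ± 0.14 (adjusted p = 0.063). Of 19 genes of the polyadenylation machinery, 10 changed with time (52.6%, beside 44% of all genes), 1 was higher in the light and 3 were lower (beside 9.56% and 14.3% of all genes), with a median difference of −0.12, all close to the shares and the median over all genes. *Cpsf1* and *Cpsf3*, of the cleavage and polyadenylation complex, were lower in the light by −0.60 ± 0.18 (adjusted p = 0.0234) and −0.60 ± 0.09 (adjusted p = 2.21e-04). *Cpsf3* was low at ZT6 and ZT10 (52.7 and 54.2 CPM) but high at ZT2, in the light (177 CPM, beside 167 CPM at ZT22). *Cstf2t* was higher by 0.34 ± 0.11 (adjusted p = 0.0325), and *Clp1*, at 0.10 ± 0.21, was not called (adjusted p = 0.79).

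Relatives with an RNA recognition motif leaned the way of *Cirbp* and *Rbm3*. Of 15 listed, 13 were tested, 10 changed with time (76.9%, beside 44% of all genes), 7 were higher in the light and 0 were lower (beside 9.56% and 14.3% of all genes), with a median log2 difference of 0.48, and this direction was the same under the other scalings. *Hnrnpa1* had 145 CPM in the light and 68.0 CPM in the dark (log2 1.21 ± 0.11, SE; edgeR adjusted p = 1.02e-06), although it has many processed copies in the genome and its reads are uncertain. *Hnrnpa0* had 202 and 87.5 CPM (log2 1.03 ± 0.18; adjusted p = 4.40e-04). At ZT2, in the light, *Hnrnpa0* had a mean of 88.1 CPM, beside 82.8 to 91.7 CPM at the dark timepoints. *Hnrnpa1* had 122 CPM at ZT2, beside 42.4 to 111 CPM at the dark timepoints. *Hnrnpd*, *Hnrnpab*, *Msi1*, *Msi2* and *Tra2a*, named here after their values were seen, were the others called higher.

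Proteins with a cold shock domain, a different fold from that of CIRBP, did not share a direction. Of 8 listed, 7 were tested and 6 changed with time (85.7%, beside 44% of all genes), with 1 higher and 3 lower in the light (beside 9.56% and 14.3% of all genes). Among the 6 was *Lin28a*, which was near the floor. It had means of 0 CPM at ZT2, ZT14 and ZT22, at most 0.13 CPM at ZT6 and ZT10, and 2.67 ± 4.56 CPM (SD) at ZT18. *Ybx1* was higher in the light (log2 0.78 ± 0.12, SE; edgeR adjusted p = 2.36e-04) and stood between 67.8 and 85.8 CPM at ZT6 and ZT10 and between 33.2 and 33.7 CPM elsewhere. *Csdc2* was lower, by −0.64 ± 0.19 (adjusted p = 0.0207), and *Lin28b* had 0.72 ± 0.26 (adjusted p = 0.0506).

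The heat shock response, which rises with temperature, leaned the other way. Of 20 genes, 14 changed with time (70%, beside 44% of all genes), 2 were higher in the light and 11 lower (beside 9.56% and 14.3% of all genes), with a median log2 difference of −0.40, and under upper-quartile scaling 2 were higher and 8 lower. *Dnajb1*, a co-chaperone that is a classic target of the heat shock factor HSF1, had 62.2 CPM in the light and 158 CPM in the dark (log2 −1.13 ± 0.12, SE; edgeR adjusted p = 4.69e-06) and stood highest at ZT14 and ZT18 (212 and 226 CPM), where *Rbm3* was lowest. At ZT22, in the dark, *Dnajb1* had only 35.8 CPM, below its 81.3 and 79.9 CPM at ZT6 and ZT10, and at ZT2 it had 25.3 CPM. *Hspa8*, a constitutive HSP70, was lower in the light by −1.07 ± 0.30 (adjusted p = 0.0149). Its means were 494, 143 and 268 CPM at ZT2, ZT6 and ZT10, and 417, 535 and 786 CPM at ZT14, ZT18 and ZT22. It thus stood highest at ZT22, where *Rbm3* was high again, and did not share the course of *Dnajb1*. *Hspe1*, the mitochondrial co-chaperonin, and *Hspa4* were higher, by 0.47 ± 0.08 (adjusted p = 6.04e-04) and 0.40 ± 0.10 (adjusted p = 0.00868). The inducible *Hspa1a* and *Hspa1b*, at means of 1.94 and 0.40 CPM, were not called. Of 15 genes of temperature-gated channels, 5 changed with time (33.3%, below the 44% of all genes), 0 were higher in the light and 3 lower (beside 9.56% and 14.3% of all genes), 1 of them *Trpv1*, at a mean of 0.094 CPM. Of the 5, *Trpm2*, a warmth-sensing channel, and *Kcnk2*, a heat-activated potassium channel, were lower in the light by −1.01 ± 0.32 (adjusted p = 0.0318) and −1.01 ± 0.25 (adjusted p = 0.00766), *Trpm3* and *Trpv2* were not called between light and dark, and *Trpa1* had at most 23 reads in a replicate and 0 in all replicates at ZT6, ZT10 and ZT14. In the 7 lists, 0 genes passed the joint test inside clusters, which called 0.116% of all genes.

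**Figure D5:**
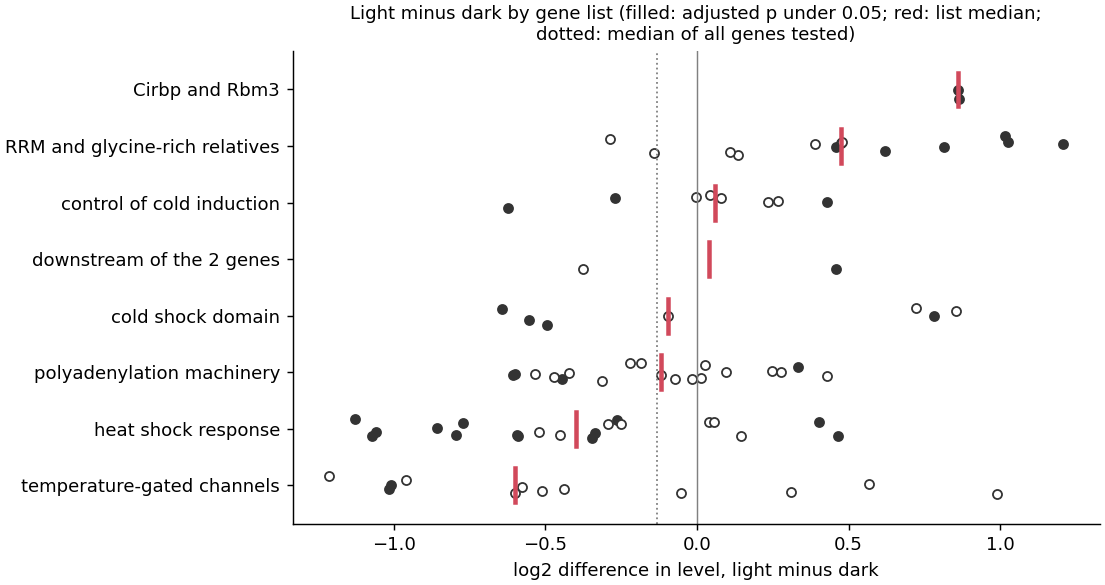
log2 difference in level, light minus dark (x axis), for each tested gene of 8 lists (rows), with filled points for an adjusted p under 0.05, a red bar at the list median and a dotted line at the median of all genes tested (−0.13). *Cirbp* and *Rbm3* lie together at 0.86, the heat shock genes are mostly left of 0, and *Trpv1*, *Trpv4* and *Trpa1*, of at most 1.07 CPM on average, lie beyond the axis and are left out.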

How the data were processed

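Per the labels and the study's methods, the authors filtered reads for quality, used GSNAP and the mm10 build for alignment, and HTSeq 0.5.4p1 for gene counts. They deposited whole read counts (30031 genes, lanes of a replicate combined) and a second table of 31077 genes of normalized signal, the counts divided by a size factor per library (DESeq2 is named), in which 100% of values were whole multiples of 1 step within 0.01. For ZT6 and ZT10 its recovered reads were fewer than the counts (median log2 ratio −0.13 to −0.11), and the count table was used. Strand and the treatment of multiply aligned reads are not given in the sources used here. 0 sample columns were left unused.

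edgeR 4.0.16 (TMM, quasi-likelihood F-test, Benjamini–Hochberg over 18941 genes, threshold 0.05) fitted the 6 timepoints of all 18 replicates once. limma 3.58.1 fitted the cosine to log2 CPM (prior count 2), and JTK_CYCLE used an exact null and Bonferroni adjustment over 6 lags in Python 3.11.15. DESeq2 1.42.0 was an alternative, beside other scalings, filters, recovered reads and leaving out each replicate. p-values measure the spread between pools. Scripts were tested on simulated data. Symbols came from GENCODE M21 (97.2% of identifiers), copies from BLAST 2.17.0.

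The members and gene lists were chosen with earlier results of these data known. Named genes are *Cirbp*, *Rbm3*, the 8 most like and 4 most opposite each, all genes that control cold induction or lie downstream, up to 2 called genes per direction in each other list, and overlapping genes. The result for 1 gene that this rule names is not reported here. The joint test inside clusters, the addition of *Gm10156* reads and the genes within 50000 bases were chosen after seeing the data.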

Additional observations from a re-analysis of the deposited data

How the results depend on the processing

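The time call and the light minus dark call of *Cirbp* and of *Rbm3* held under DESeq2, DESeq2 size factors, upper-quartile scaling, both filters, recovered reads and without each replicate. The light minus dark log2 difference ran from 0.78 to 0.98 for *Cirbp* and from 0.77 to 0.97 for *Rbm3*. Tested inside clusters alone, the adjusted p was 0.57 for *Cirbp* and 0.54 for *Rbm3*. The JTK_CYCLE p of *Rbm3* was 0.0639 after adjustment over genes and ran from 0.00189 to 0.0662 without single replicates. Without single replicates, the log2 step of *Rbm3* from ZT10 to ZT14 ran from −1.21 to −0.91 and that from ZT18 to ZT22 from 0.80 to 1.41, and 1 to 2 of the *Clock* and *Rtn3* pair were called with time. The light minus dark difference of the log2 ratio of *Rbm3* to *Cirbp*, never called, was −0.0069 with the authors' normalized values and ran from −0.16 to 0.18 without single replicates. F of that ratio over the timepoints ran from 3.88 to 11.2 without single replicates. The letters A, B and C did not pair the pools: of 45 same-letter pairs, 1 correlated above 0.1. With the letter as a replicate block the time test of *Cirbp* gave an adjusted p of 6.89e-05 and that of *Rbm3* 0.00262, F of the ratio was 6.92, 7847 genes were called with time in place of 8343, and no call of *Cirbp* or *Rbm3* changed. The cause of these shifts was not tested. With 3 pools per timepoint, differences of a doubling or less inside a cluster are not resolved for *Rbm3*.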

Other observations

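Genes beside *Cirbp* and *Rbm3* on their chromosomes were compared, a choice made after seeing the data. *Cbarp*, the gene most like *Cirbp* of the 15758 compared, ends 25150 bases upstream of it on chromosome 10 and runs on the opposite strand (80130451–80140835, GRCm38). It was higher in the light by 0.87 ± 0.10 on the log2 scale (SE; edgeR adjusted p = 1.77e-05). *Atp5d*, which starts inside *Cbarp* on the other strand so that their shared reads are uncertain, and *Midn*, which lies between *Cbarp* and *Cirbp*, are given beside it. *Midn* and *Atp5d* had r = 0.46 and 0.64 with *Cirbp* over the 18 replicates and light minus dark differences of 0.47 ± 0.22 (adjusted p = 0.14) and 0.12 ± 0.13 (adjusted p = 0.57). *1600002K03Rik*, which starts 158 bases past the end of *Cirbp*, had r = 0.38. The neighbours of *Rbm3* on chromosome X had r from −0.51 (*Wdr13*) to 0.14 (*Ebp*) with it, and *Wdr13*, 6083 bases from *Rbm3*, was lower in the light by −0.52 ± 0.12 (adjusted p = 0.00518).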
